A study of Mus musculus with 12 samples.

Results

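Of the 23235 gene symbols measured, 8 regulators of meiotic arrest and resumption in the mouse oocyte are described here: Gpr3, Pde3a, Wee2, Cdc25b, Mos, Ccnb1, Ccnb2 and Ccnb3. They were chosen by name as regulators of cyclic AMP (cAMP) and of the kinase CDK1 with its cyclin B partners, and all 8 were found. Poly(A) RNA was profiled in 12 libraries of 10 oocytes each, from ovaries of wild-type (WT) and Mtr4-null females. MTR4 is an RNA helicase that unwinds nuclear RNAs so that the RNA exosome can degrade them. The 4 groups were WT at day 14, Mtr4-null at day 14, WT at day 21 and Mtr4-null at day 21, with 3 libraries each in the labels. The day 14 oocytes were growing germinal vesicle (GV) oocytes and the day 21 oocytes were GV oocytes, the stage with an intact nucleus before meiosis resumes. How the deletion was made, the driver of any recombinase, the strain, and whether the libraries of a group came from different females are not given in the sources used here.

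The values are FPKM, read fragments scaled by transcript length and by mapped fragments, so that levels can be compared between genes per length. The authors deposited 1 mean FPKM per gene and group. Hence no value below has a replicate error or a test, and library depth is unknown. A difference means a difference of log2(FPKM + 1) between 2 group means. Genes whose difference reached 1 in either direction are counted as higher or lower, which is 2-fold on that scale and only a rule of size. Counts over genes are made among the 11913 whose average over the 4 groups was 1 FPKM or more, a filter that all 8 regulators passed. Since an FPKM is a share of its library's RNA, a smaller RNA content per oocyte would not show in it, and could not be told apart from fewer intact oocytes.

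As background, a fully grown oocyte is held in the first meiotic prophase by cAMP. The receptor GPR3 signals through a stimulatory G protein to adenylyl cyclase, which makes cAMP, and the phosphodiesterase PDE3A breaks it down. Protein kinase A, which cAMP activates, keeps CDK1 inactive by favouring its inhibitory kinase WEE2 over its activating phosphatase CDC25B. When cAMP falls, CDK1 bound to cyclin B becomes active, the nucleus breaks down and meiosis resumes. The kinase MOS then drives the MAP kinase cascade that holds the egg at the second metaphase. Fully grown oocytes transcribe little and rely on stored mRNA, much of it kept with short poly(A) tails until maturation. The libraries capture RNA by its poly(A) tail, so amount and tail length were not measured apart.

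The targeted gene, listed as Skiv2l2 (now Mtrex), stood at 27.6 FPKM in WT against 1.57 FPKM in Mtr4-null oocytes at day 14, and at 26.3 and 3.86 FPKM at day 21. All 16 oocyte markers searched for were measured, with a summed level between 16887 and 30287 FPKM per group. Their median log2 difference between Mtr4-null and WT oocytes was -0.029 at day 14 and -0.67 at day 21. The median of all genes at day 21 was -0.27. At that age 5 of the 16 were at least 2-fold lower and 1 higher. These are 31.25% and 6.25%, beside 25.7% lower and 20.2% higher among all genes. The 16 granulosa cell markers summed to between 26.5 and 39.7 FPKM, and 5 of them passed the filter. The highest in WT oocytes was Cyp19a1, at 10.5 FPKM at day 14 and 25.3 FPKM at day 21. In Mtr4-null oocytes it was Nr5a2 at day 14 and Inha at day 21, at 10.5 and 10.9 FPKM. Amh and Foxl2 stood at or below 0.320 FPKM in every group. The 13 markers of theca, stroma, endothelium and blood summed to between 3.73 and 21.2 FPKM, with Pecam1 the highest of them in every group. Pecam1 stood at 13.2, 9.82, 20.7 and 2.13 FPKM in WT day 14, Mtr4-null day 14, WT day 21 and Mtr4-null day 21. The hemoglobin genes Hbb-b1 and Hba-a1 were listed at 0 in every group. The decimals of the Mtr4-null day 21 column are those of a mean of 2 rather than 3 numbers, since the last digit is 5 in 92.3% of the 2211 values between 10 and 100 written with 5 decimals. It may thus hold 2 libraries although the labels name 3, which touches every Mtr4-null value of day 21 below.

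The 8 regulators covered a wide range of levels, and their order was nearly the same in every group. In WT oocytes at day 14 the order was Ccnb1, Mos, Wee2, Ccnb2, Gpr3, Cdc25b, Pde3a and Ccnb3, from 1008 down to 7.31 FPKM. The same order held in Mtr4-null oocytes at both ages. In WT oocytes at day 21 only the last pair traded places, with Ccnb3 at 13.6 and Pde3a at 9.27 FPKM. The Ccnb1 level lay above that of 99.5% of the genes tested in WT oocytes at both ages, and the Mos level above 99.1% at day 14 and 98.6% at day 21. Cdc25b, Pde3a and Ccnb3 were of middling level in WT oocytes at day 14, above 66.1%, 45.0% and 43.3% of genes. Without replicate values it cannot be said which neighbours in this order differ beyond their spread.

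**Figure D1:**
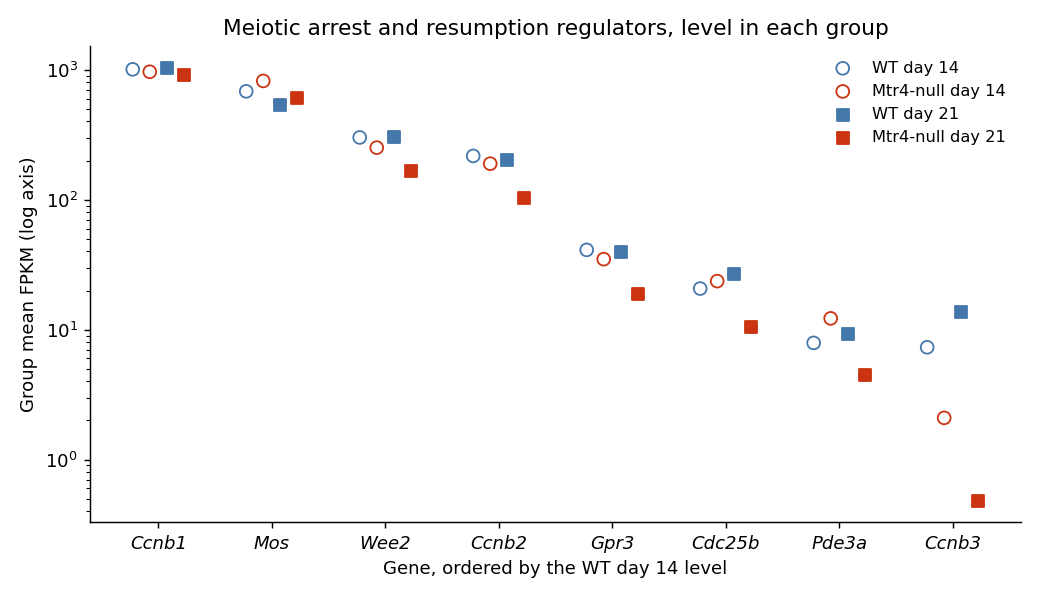
Mean FPKM of each of the 8 regulators (log axis) in the 4 groups. Each point is 1 group mean with no error, open circles are day 14 and filled squares day 21, blue is WT and red Mtr4-null. Ccnb1 stays near 1000 FPKM in every group, and Ccnb3 drops from 13.6 FPKM in WT to 0.483 FPKM in Mtr4-null oocytes at day 21.

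The cAMP side of the switch was examined first, with the receptor that raises cAMP and the enzyme that removes it. Gpr3 stood at 41.1 FPKM in WT against 34.9 FPKM in Mtr4-null oocytes at day 14, and at 39.4 and 18.9 FPKM at day 21. The WT level was alike at both ages, and the Mtr4-null mean at day 21 was the low one, at 47.9% of WT. The log2 difference was -0.23 at day 14 and -1.02 at day 21, where the median of all genes was itself -0.27. Gpr3 was 2-fold lower at day 21 under 2 of the 5 scalings of the columns and stood at -0.88, -0.86 and -0.71 under the others. The gene span of Gpr3 overlaps that of Cd164l2 on the other strand in GENCODE, with no exonic base in common, and the libraries do not keep the strand. Cd164l2 stood far above Gpr3, at 457, 389, 607 and 270 FPKM in WT day 14, Mtr4-null day 14, WT day 21 and Mtr4-null day 21. Its ratio of Mtr4-null to WT was 0.850 at day 14 and 0.445 at day 21, beside 0.848 and 0.479 for Gpr3, whereas its ratio of day 21 to day 14 in WT was 1.33 beside 0.958 for Gpr3. Whether Cd164l2 reads enter the Gpr3 value was not tested.

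Pde3a, the phosphodiesterase gene, stood at 7.90 FPKM in WT against 12.2 FPKM in Mtr4-null oocytes at day 14, and at 9.27 and 4.51 FPKM at day 21. The Mtr4-null mean was thus the highest of the 4 at day 14 and the lowest at day 21. The log2 difference was 0.57 at day 14 and -0.90 at day 21, so neither reached 2-fold at the pseudocount of 1. The change of the genotype difference from day 14 to day 21 was -1.47, against -0.79 for Gpr3. Gpr3 and Pde3a therefore stood on opposite sides of WT at day 14 and on the same side at day 21.

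The kinase and phosphatase that act on CDK1 directly differed in level by an order of magnitude. Wee2, the oocyte kinase that inhibits CDK1, stood at 301 FPKM in WT against 252 FPKM in Mtr4-null oocytes at day 14, and at 306 and 166 FPKM at day 21. The WT means of both ages were close, and the Mtr4-null mean at day 21 was 54.2% of WT, a log2 difference of -0.88. Cdc25b, which encodes the phosphatase that activates CDK1, stood at 20.7 and 23.6 FPKM at day 14, then 26.9 and 10.5 FPKM at day 21. Its Mtr4-null mean was slightly above WT at day 14 and at 39.1% of WT at day 21, a log2 difference of -1.28. Cdc25b was 2-fold lower at day 21 under 4 of the 5 scalings of the columns and stood at -0.98 under the fifth. Among the related genes, Wee1 stood at 11.6 and 15.8 FPKM in WT and Mtr4-null oocytes at day 21, and Pkmyt1, a further CDK1 inhibitory kinase, at 16.4 and 10.3 FPKM. The phosphatase genes Cdc25a and Cdc25c stood at 14.3 and 10.8 FPKM in WT, against 6.39 and 2.35 FPKM in Mtr4-null oocytes at that age, both 2-fold lower.

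Mos, the kinase gene that starts the MAP kinase cascade of the maturing oocyte, was the one regulator whose mean was above WT at both ages. It stood at 683 FPKM in WT against 821 FPKM in Mtr4-null oocytes at day 14, and at 535 and 607 FPKM at day 21. Both genotypes had the lower value at day 21, and the log2 difference between genotypes was 0.27 at day 14 and 0.18 at day 21, far from 2-fold. Under the 5 scalings the day 21 difference ran from 0.036 to 0.51 and stayed above 0. The level at day 21 exceeded that of 98.6% of genes in both genotypes.

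The 3 cyclin B genes, whose proteins bind CDK1, behaved differently from each other, and their promoters are printed here so that this can be set beside their sequence. The sequences are the 250 bases before the annotated start in RefSeq (GRCm38.p6), written 5′ to 3′. Capitals mark CCAAT on either strand (CCAAT or ATTGG), the box bound by the factor NF-Y, and TTTGAA on either strand (TTTGAA or TTCAAA), a core of the cell cycle homology region of many mitotic genes. TTCGAA, its other core, was also searched. No marked motif overlaps another.
Ccnb1 promoter, chr13:100786487-100786736, minus strand: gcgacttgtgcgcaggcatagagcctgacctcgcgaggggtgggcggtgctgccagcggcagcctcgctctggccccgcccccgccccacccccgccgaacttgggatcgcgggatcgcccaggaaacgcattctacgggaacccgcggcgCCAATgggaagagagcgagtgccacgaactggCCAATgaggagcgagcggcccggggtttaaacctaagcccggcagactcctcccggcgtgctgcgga
Ccnb2 promoter, chr9:70421555-70421804, minus strand: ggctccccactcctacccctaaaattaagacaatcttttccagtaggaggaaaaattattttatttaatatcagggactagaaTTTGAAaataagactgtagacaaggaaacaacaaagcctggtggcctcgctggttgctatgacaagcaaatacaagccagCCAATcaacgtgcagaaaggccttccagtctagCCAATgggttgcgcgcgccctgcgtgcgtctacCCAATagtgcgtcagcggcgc
Ccnb3 promoter, chrX:7041620-7041869, minus strand: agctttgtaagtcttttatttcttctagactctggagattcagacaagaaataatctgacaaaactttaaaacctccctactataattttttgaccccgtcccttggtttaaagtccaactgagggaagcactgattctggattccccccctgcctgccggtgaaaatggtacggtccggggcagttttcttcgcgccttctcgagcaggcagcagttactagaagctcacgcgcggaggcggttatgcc
Ccnb1 holds 2 CCAAT boxes, whose first bases lie 99 and 67 bases before the start, and Ccnb2 holds 3, at 87, 54 and 21 bases before it. Ccnb3 holds none. TTTGAA occurs once, in Ccnb2, with its first base 167 bases before the start, and TTCGAA in none of the 3. Bases past the start were not searched, so a core there would not be seen. Among all 32851 promoter windows of this length, 33.8% hold CCAAT, 16.0% TTTGAA and 1.34% TTCGAA. The G and C content is 69.6% in Ccnb1, 47.6% in Ccnb2 and 48.0% in Ccnb3, against a median of 52.4% over all windows.

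Ccnb1, the main cyclin B of the oocyte, stood at 1008 FPKM in WT against 965 FPKM in Mtr4-null oocytes at day 14, and at 1040 and 917 FPKM at day 21. All 4 means lay within a narrow range, and the log2 differences of -0.062 and -0.18 changed sign with the scaling of the columns. The lowest and highest values over 5 scalings were -0.21 and 0.089 at day 14, then -0.44 and 0.14 at day 21. Cdk1, its kinase partner, was as even, at 69.1, 63.7, 73.0 and 69.3 FPKM in WT day 14, Mtr4-null day 14, WT day 21 and Mtr4-null day 21. The ratio of Ccnb1 to Cdk1 was between 13.2 and 15.2 in the 4 groups as deposited, and between 10.6 and 18.7 under quantile normalization, lowest in Mtr4-null oocytes at day 21 and highest in those at day 14.

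Ccnb2, whose protein can stand in for cyclin B1 in the oocyte, stood at 217 FPKM in WT against 189 FPKM in Mtr4-null oocytes at day 14, and at 203 and 102 FPKM at day 21. The Mtr4-null mean at day 21 was the low one, at 50.4% of WT. The log2 difference was -0.20 at day 14 and -0.98 at day 21, just short of the size rule, with Gpr3 at -1.02 just past it. GENCODE and RefSeq also list the copies Ccnb1-ps and Ccnb2-ps, with no row under these names in the table, so reads shared with a copy may raise either value.

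Ccnb3, needed for the oocyte to leave the first metaphase, had the largest genotype differences of the 8 at both ages. It stood at 7.31 FPKM in WT against 2.09 FPKM in Mtr4-null oocytes at day 14, where its FPKM was 3.49-fold lower. The day 21 means were 13.6 FPKM in WT against 0.483 FPKM without MTR4, 28.1-fold lower. The WT mean was higher at day 21 than at day 14 and the Mtr4-null mean lower. The log2 differences of -1.43 and -3.30 lay at the 0.512th percentile of all genes at day 14 and at the 0.445th at day 21. Over the 5 scalings the difference ran from -1.64 to -1.43 at day 14 and from -3.75 to -3.14 at day 21. Because Ccnb3 is low, its values rest on fewer reads than those of the other cyclins, and how many is unknown.

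Taken as a set, the regulators stood closer to WT at day 14 than at day 21. At day 14 Ccnb3 was the only one of the 8 at least 2-fold lower and none was higher, where 1.55% of all genes were lower and 8.10% higher. The lowest and highest log2 differences of the other 7 were -0.26 for Wee2 and 0.57 for Pde3a. At day 21, 3 of the 8 were at least 2-fold lower, namely Gpr3, Cdc25b and Ccnb3, and none was higher. The background was 25.7% of all genes lower and 20.2% higher, so with 8 genes that count is near what all genes show. The median log2 difference of the 8 was -0.13 at day 14, against 0.052 for all genes, and -0.94 at day 21, against -0.27. Under quantile normalization the day 14 medians traded order, at -0.070 for the 8 and -0.095 for all genes. At day 21, 7 of the 8 lay below 0 and 6 below the median of all genes, the exceptions being Mos and Ccnb1. The 16 oocyte markers, at a median of -0.67, lay below all genes at that age too. The median of all genes moved with the scaling, and relative to it the median of the 8 at day 21 lay between -0.68 and -0.60 under the 5 scalings. It moved with the filter too, and was -0.41 among genes with a mean of at least 5 FPKM, as all 8 had. Relative to that value the median of the 8 lay at -0.53. Scaling also moved the split of all genes, from 2410 higher and 3067 lower at day 21 to 2895 and 2155 with median-of-ratios scaling over the genes tested. At day 14 it moved from 965 higher and 185 lower to 708 and 321 under quantile normalization. Only Ccnb3 was 2-fold lower at day 21 under every scaling.

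**Figure D2:**
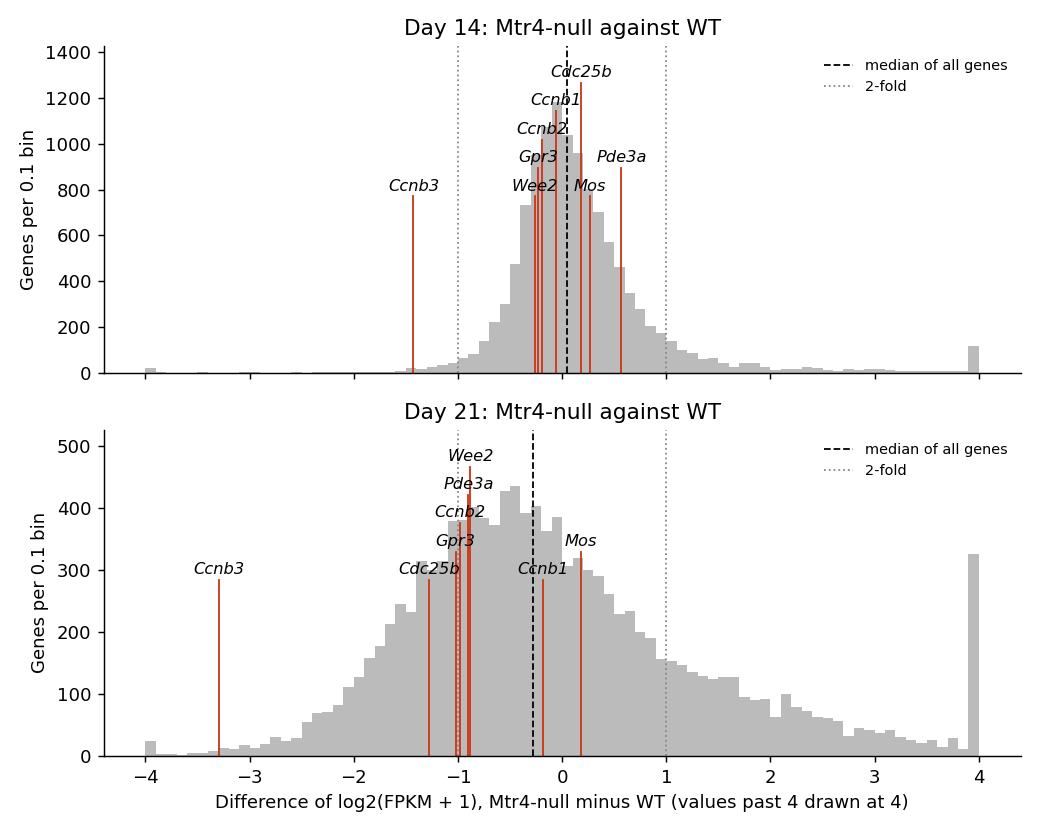
Histograms of the difference of log2(FPKM + 1), Mtr4-null minus WT, for 11913 genes at day 14 (top) and day 21 (bottom), with red lines at the 8 regulators, dashed lines at the median of all genes and dotted lines at 2-fold. At day 14 only Ccnb3 lies past the lower 2-fold line, and at day 21 Gpr3, Cdc25b and Ccnb3 do, while Mos and Ccnb1 lie to the right of the median.

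The change with age was examined within each genotype. These contrasts share group means with the genotype contrasts, so they restate the same 4 values. In WT oocytes none of the 8 differed 2-fold between day 14 and day 21, where 5.35% of all genes did. Their log2 differences ran from -0.35 for Mos to 0.81 for Ccnb3, with a median of 0.033. In Mtr4-null oocytes all 8 had the lower mean at day 21, with a median of -0.87 against -0.30 for all genes. As the median of all genes was below 0, most genes had the lower mean at day 21 too. Below that median lay 7 of the 8. Pde3a, Cdc25b and Ccnb3 were 2-fold lower there, at -1.26, -1.10 and -1.06, where 18.6% of all genes were lower. In FPKM Ccnb3 was 4.33-fold lower at day 21, at 0.483 against 2.09, which the pseudocount of 1 makes smaller. With a pseudocount of 0.1 its log2 difference was -1.91. At the pseudocount of 1 none of the 8 was 2-fold lower under median-of-ratios scaling. Pde3a stood at -0.99, Ccnb3 at -0.89 and Cdc25b at -0.80 there. Ccnb1 turned to 0.24 under that scaling from -0.075 as deposited. Over all genes, the Mtr4-null split moved from 1082 higher and 2216 lower to 1553 and 1264.

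Ratios between regulators within 1 column do not depend on how the column is scaled by a constant. Ccnb1 made up 81.8% of the summed cyclin B FPKM in WT and 83.4% in Mtr4-null oocytes at day 14, and 82.8% and 89.9% at day 21. The share of Ccnb2 was 17.6% and 16.4% at day 14, then 16.1% and 10.0% at day 21. The share of Ccnb3 was 0.594% and 0.181% at day 14, then 1.08% and 0.0474% at day 21. In Mtr4-null oocytes at day 21 the cyclin B transcripts were therefore a larger part Ccnb1 than in the other 3 groups. The ratio of Wee2 to Cdc25b, the inhibitor over the activator of CDK1, was 14.6 in WT and 10.7 in Mtr4-null oocytes at day 14, and 11.4 and 15.8 at day 21. Its order between genotypes thus turned around between the ages. The ratio of Gpr3 to Pde3a was 5.20 and 2.86 at day 14, then 4.24 and 4.18 at day 21, so that the genotypes were apart at day 14 and side by side at day 21 as deposited. Under quantile normalization it was 4.02 in WT and 4.49 in Mtr4-null oocytes at day 21, in the other order. The ratio of Mos to Ccnb1 was higher in Mtr4-null oocytes at both ages, at 0.677 and 0.850 at day 14, then 0.515 and 0.663 at day 21.

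**Figure D3:**
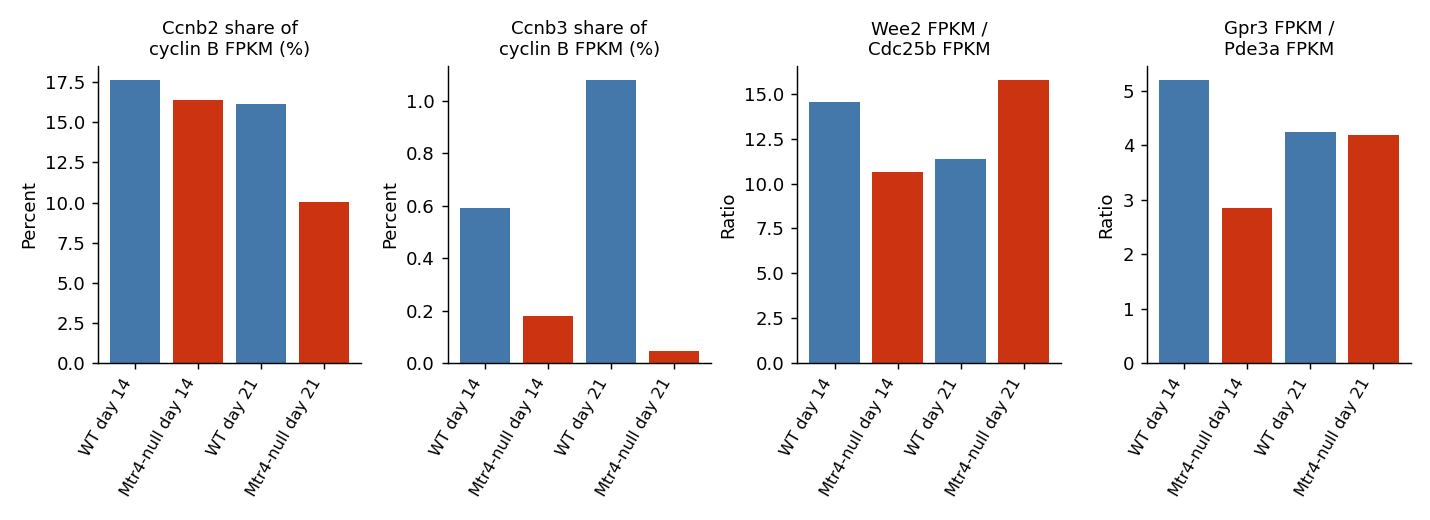
Bars starting at 0 give, from left to right, the percent of the summed FPKM of Ccnb1, Ccnb2 and Ccnb3 that is Ccnb2, the percent that is Ccnb3, the ratio of Wee2 to Cdc25b and the ratio of Gpr3 to Pde3a, in each group (blue WT, red Mtr4-null, no error as each bar is made from group means). The Ccnb2 share is lowest in Mtr4-null oocytes at day 21, at 10.0%, and the Wee2 to Cdc25b ratio is highest there, at 15.8.

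The regulators also differ in gene structure, which the choice of genes did not use. In the longest GENCODE transcript Mos and Gpr3 have 1 exon (a second Gpr3 transcript has 2), Ccnb1 and Ccnb2 have 9, Wee2 has 12, Ccnb3 has 14, and Cdc25b and Pde3a have 16. Over all genes the day 21 difference went down with exon number. Its median was 1.31 for 520 genes of 1 exon, 0.25 for 2 to 4 exons, -0.26 for 5 to 9, -0.53 for 10 to 19 and -0.71 for 20 and above. Genes low in WT can pass the filter through their Mtr4-null level, so the classes were also read without such genes. Among protein-coding genes with a mean of at least 5 FPKM in WT the medians of these 5 classes were 0.17, -0.19, -0.46, -0.77 and -1.04. Mos at 0.18 lay near the median of its class of 103 such genes, and Gpr3 at -1.02 among the 11.7% of that class that were 2-fold lower. Ccnb1 at -0.18 lay above and Ccnb2 at -0.98 below the median of theirs. Wee2 at -0.88, Pde3a at -0.90 and Cdc25b at -1.28 were below the median of -0.77 of their class, in which 40.0% of genes were 2-fold lower, and Ccnb3 at -3.30 was far below it. By genomic span the classes ran the same way, and Pde3a, which spans 258 kb, belonged to the class from 100 kb upward. The median of that class was -1.12 among the protein-coding genes with at least 5 FPKM in WT, and -0.82 among all its genes. Pde3a at -0.90 lay above the first and below the second. Whether structure bears on the level of any of these 8 genes was not tested.

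Neighbouring genes within 5 kb were read beside the members. Cenph, 2.75 kb from Ccnb1 on the same strand, stood at 170 FPKM in WT against 144 FPKM in Mtr4-null oocytes at day 21, for a ratio of 0.850 beside 0.882 for Ccnb1. Rnf111, 3.88 kb from Ccnb2 on the same strand, stood at 28.0 and 8.96 FPKM. E330009J07Rik, 2.95 kb from Wee2 on the other strand, stood at 7.11 and 2.19 FPKM, lower in Mtr4-null oocytes as Wee2 was. Ssbp1, 4.54 kb from Wee2 on the same strand, stood at 58.5 and 77.8 FPKM, opposite to Wee2. Spef1 shares 92 exonic bases with Cdc25b on the other strand and stayed at or below 0.900 FPKM in every group. Gm28523, an antisense gene with no row under that name, shares 741 exonic bases with Pde3a, 6.02% of the Pde3a exonic bases. Mos and Ccnb3 had no annotated neighbour within that distance.

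The genes around the 8 regulators were read from 5 lists, each beside the share of all genes that was 2-fold apart, 25.7% lower and 20.2% higher at day 21 and 1.55% lower and 8.10% higher at day 14. In the list of cAMP and protein kinase A genes, 23 of 31 passed the filter, none differed 2-fold at day 14, and at day 21 10 were lower and 1 higher, which is 43.5% lower beside 25.7% of all genes. The share of all genes also counts genes low in WT. Among protein-coding genes with a mean of at least 5 FPKM in WT, it ran from 11.7% to 51.1% over the classes of exon number. The list median was -0.22 at day 14 and -0.90 at day 21, below that of all genes by 0.27 and 0.62. Pde1b, a phosphodiesterase gene, stood at 14.4 FPKM in WT against 1.39 FPKM in Mtr4-null oocytes at day 21. The genes Akap1 and Akap7, whose proteins anchor protein kinase A, stood at 52.1 and 28.3 FPKM in WT, against 14.4 and 8.05 FPKM in Mtr4-null oocytes. The regulatory subunit gene Prkar2b stood at 13.0 and 3.92 FPKM, and Rgs2, a brake on G protein signalling, at 415 and 154 FPKM. Gnas, which encodes the stimulatory G protein that GPR3 uses, stood at 130 and 115 FPKM at day 14, then 111 and 48.0 FPKM at day 21. The phosphodiesterase gene Pde7a was the higher one, at 0.144 and 2.45 FPKM, and its mean of 1.02 over the groups passed the filter through the Mtr4-null value. Adcy3, the adenylyl cyclase gene tied to oocyte arrest in the mouse, did not pass, with at most 0.298 FPKM in any group.

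In the list of the CDK1 phosphorylation switch, which includes Wee2 and Cdc25b, 31 of 31 genes passed, none differed 2-fold at day 14, and at day 21 10 were lower and 1 higher. The share lower was 32.3%, near the 25.7% of all genes. The list medians were -0.067 and -0.62. Under 3 of the 5 scalings 1 gene was 2-fold lower at day 14. Plk1, a kinase that activates CDC25 proteins, stood at 135 FPKM in WT against 24.3 FPKM in Mtr4-null oocytes at day 21. Cdc14b, a phosphatase gene, stood at 56.9 and 19.6 FPKM and the protein phosphatase 1 gene Ppp1cc at 14.2 and 4.32 FPKM. Ppp2cb, a catalytic subunit of protein phosphatase 2A, was the higher one, at 1.27 and 14.1 FPKM.

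In the list of CDKs and cyclins, which includes the 3 cyclin B genes, 21 of 25 genes passed. At day 14, 1 was lower (Ccnb3), or 2 under median-of-ratios scaling, and none was higher. At day 21, 5 were lower and 3 higher, or 23.8% and 14.3% beside 25.7% and 20.2% of all genes, with a median of -0.18. The higher ones were the cyclin E genes Ccne1, at 7.79 FPKM in WT against 62.6 FPKM in Mtr4-null oocytes, and Ccne2, at 14.6 and 46.1 FPKM, and the kinase gene Cdk4, at 13.9 and 35.7 FPKM. Both cyclin E genes had a lower mean at day 21 than at day 14 in WT oocytes, where they stood at 17.6 and 33.7 FPKM at day 14. Among the lower ones, Ccnf stood at 24.9 and 6.83 FPKM at day 21 and Cdk7, the kinase gene of the CDK-activating complex, at 208 and 74.8 FPKM. Cyclin B genes were thus level or lower where cyclin E genes were higher.

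The anaphase-promoting complex (APC/C) marks cyclin B for destruction. In its list 24 of 25 genes passed, none differed 2-fold at day 14, and at day 21 6 were lower and 1 higher, with a median of -0.62. Of all genes 25.7% were lower, a share like that of the list. At that age the subunit genes Cdc16, Anapc16 and Anapc2 stood at 20.4, 111 and 20.4 FPKM in WT, against 4.27, 37.2 and 8.22 FPKM without MTR4. The checkpoint kinase gene Bub1b stood at 268 and 104 FPKM, the ubiquitin-conjugating enzyme gene Ube2s at 176 and 75.8 FPKM, and the ubiquitin ligase gene Rnf114 at 351 and 147 FPKM. Mad2l1bp was the higher one, at 26.9 and 63.4 FPKM, and is named after its value was seen. Neither of the activators Fzr1 and Cdc20, nor either of the inhibitors Fbxo5 and Fbxo43, was 2-fold apart at day 21. The activator Fzr1, which keeps cyclin B1 low during arrest, stood at 71.9 and 70.0 FPKM, and Cdc20 at 78.8 and 50.7 FPKM. The inhibitor Fbxo5 stood at 109 and 100 FPKM and Fbxo43, the inhibitor of the egg, at 42.0 and 22.5 FPKM, a log2 difference of -0.87.

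In the list around MOS and the MAP kinases, 13 of 17 genes passed, none differed 2-fold at day 14, and at day 21 4 were lower and none higher, with a median of -0.59. The share lower was 30.8%, near that of all genes, 25.7%. Among the lower ones were the MAP kinase gene Mapk3, at 244 FPKM in WT against 57.3 FPKM in Mtr4-null oocytes, the activating kinase gene Map2k2, at 24.2 and 7.41 FPKM, and Cpeb1, at 322 and 95.4 FPKM. CPEB1 binds stored mRNAs, that of Mos among them, and controls the length of their poly(A) tails. Mos itself, at 535 and 607 FPKM, was not among the lower ones. Over the 5 scalings of the columns the number of genes 2-fold lower at day 21 ran from 7 to 13 for cAMP and protein kinase A, from 4 to 10 for the CDK1 switch, from 3 to 7 for CDKs and cyclins and for the APC/C, and from 4 to 5 for MOS and the MAP kinases.

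**Figure D4:**
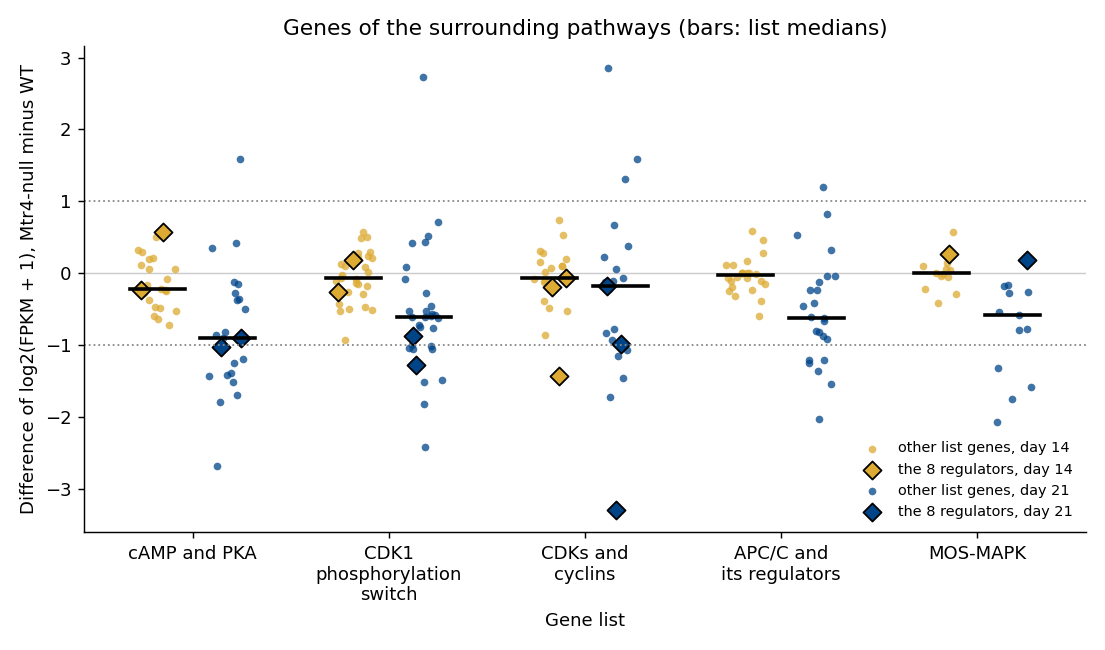
Difference of log2(FPKM + 1), Mtr4-null minus WT, for each gene of the 5 lists that passed the filter on low FPKM, at day 14 (yellow) and day 21 (blue). Diamonds are the 8 regulators, dots the other genes, black bars the list medians and dotted lines 2-fold. At day 14 only Ccnb3 lies past a 2-fold line, and at day 21 the list medians run from -0.90 for cAMP and protein kinase A to -0.18 for CDKs and cyclins.

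For the 5 regulators whose log2(FPKM + 1) spanned at least 1 over the groups, the 2 genes with the most alike pattern were found among 7154 named genes with a mean of at least 5 FPKM. Likeness was the Euclidean distance of log2(FPKM + 1), each gene centred on its own mean, over the 4 group means, and a distance of 0 is an identical pattern. Gpr3 was closest to Dopey1 and Kif20b, at distances of 0.024 and 0.048, and Vps52 was among the 2 closest to Pde3a, at 0.071. Cdc25b was closest to Zfp598 and Pard3, at 0.047 and 0.052, and Ccnb2 to Fam179b and Rsl24d1, at 0.0069 and 0.019. Ccnb3 had more distant neighbours, Aldh1a2 at 0.16 and Dab2 at 0.17. Its log2(FPKM + 1) also spanned 3.30 over the groups, against 1.08 to 1.28 for the other regulators compared. The distance is not scaled by the span of a gene, so those of Ccnb3 cannot be set directly against the others. Aldh1a2 stood at 23.9, 8.11, 39.2 and 3.78 FPKM in WT and Mtr4-null oocytes at day 14 and in the same 2 genotypes at day 21, and Dab2 at 11.9, 4.30, 24.9 and 1.69 FPKM. The granulosa list gene Cyp19a1 had its 4 means in the same order as Ccnb3, at 10.5, 4.30, 25.3 and 1.48 FPKM. Other listed genes had that order too, Pecam1, Bub1b, Akap1 and Prkar2b among them, and its share among all genes was not counted. Of the 5 granulosa markers that passed the filter Cyp19a1 was the only one to differ 2-fold at day 14. At day 21 Inha, a further granulosa marker, went the other way, at 1.72 FPKM in WT against 10.9 FPKM in Mtr4-null oocytes, as did Gja1 below the filter, at 0.444 and 2.34 FPKM. The list of 16 as a whole summed to 28.1, 26.5, 39.7 and 28.6 FPKM. Cyp19a1 alone made up 25.3 of the 39.7 FPKM in WT oocytes at day 21, and 1.48 of the 28.6 FPKM in Mtr4-null ones. The sum therefore does not show the direction of the other markers.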

How the data were processed

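Poly(A) RNA of 12 oocyte libraries, 3 in each of 4 groups by the labels, was made into Smart-seq2 libraries, per the labels' protocols. The submitters' processing notes name TopHat2 2.1.1, Cufflinks 2.2.1 and, as build, mm9, without their roles. The authors deposited FPKM values as 1 mean per gene and group, so depth and precision per library are unknown. Differences of log2(FPKM + 1) were computed with Python 3.11.15, pandas 2.3.3 and numpy 2.4.6 for genes averaging 1 FPKM or more over the groups, and the calculation was tested on simulated data. The members and lists were chosen with earlier results of these data known. Named genes were the 8 regulators, up to 6 genes per list that differed 2-fold in a genotype contrast, by size at day 21, genes named in the background, and the 2 nearest patterns; a few of these are not reported here. Alternatives were the pseudocount, the filter and the scaling of columns. Median-of-ratios scaling over the genes tested was added after the data were seen. Structures came from GENCODE vM21 (GRCm38), which gave 98.7% of genes a structure. Promoters came from RefSeq (GRCm38.p6), where 6 of the 8 regulators matched.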

Additional observations from a re-analysis of the deposited data

How the results depend on the processing

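At day 14, 1 of the 8 regulators (Ccnb3) was 2-fold apart under every alternative. At day 21 the count of 3 became 5 with each column scaled to the same sum, 4 with a pseudocount of 0.1, 2 under median-of-ratios scaling and under quantile normalization, and 1 with median-of-ratios scaling over the genes tested. In WT with age it stayed at 0, and in Mtr4-null oocytes with age the count of 3 became 0 under both median-of-ratios scalings, 1 under quantile normalization and 4 with columns scaled to the same sum. The filter on low FPKM could not change these counts, since all 8 passed it at every setting used. With a pseudocount of 0.1, 1740 rather than 1150 of all genes were 2-fold apart between genotypes at day 14, and 1282 rather than 637 in WT with age. Of 160 alternative values of single regulators, 139 kept their direction and side of the size rule, 12 dropped under it, 4 passed it and 5 turned sign below it. None that was past it turned sign. Quantile normalization moved the ratio of Wee2 to Cdc25b to 14.3, 12.5, 11.1 and 14.5 in WT day 14, Mtr4-null day 14, WT day 21 and Mtr4-null day 21. No paired analysis was possible because the columns are group means and carry no replicate number, and for the same reason no replicate could be left out. The depth of the libraries is unknown, and with it the number of reads behind low values such as those of Ccnb3.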
